A study of Mus musculus with 8 samples.

Results

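Mitosis depends on genes whose transcripts accumulate late in the cell cycle and whose products condense the chromosomes, build the spindle, attach kinetochores to it and split the cell. The genes described here are 41 such genes, listed by name: cyclins and kinases of the entry into mitosis, kinetochore and spindle proteins, the machinery of anaphase and cytokinesis, and the proliferation marker Mki67. A listed gene counted as measured if a probe set of the array carried its symbol and no other, which held for 40 of the 41 among 18193 genes measured in all. Cyclin B1 (Ccnb1) had no such probe set and was not analysed here. The 40 genes were read by 91 probe sets, 1 each for 13 genes and several for the other 27, and each gene is represented by its brightest probe set, the one with the highest mean over all arrays.

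Expression was compared between 4 cultures in which DOR, encoded by Trp53inp2, was knocked down by a lentiviral siRNA and 4 cultures given a lentivirus with scrambled RNA. All 8 were C2C12, an established mouse myoblast line, transduced at an moi of 100, sorted for GFP (93 to 99% positive) and then cultured for 4 days with 5% horse serum, a treatment under which such cells normally stop dividing and fuse into myotubes. The labels call the samples confluent myoblasts and biological replicates, without saying how the cultures were derived from the line or how far they had differentiated at harvest, so p-values measure the spread between these samples. Every culture was transduced and sorted, with 5 to 7 days of amplification. Each group holds a mixed population in place of a single clone.

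Values are log2 expression values made by the authors with RMA, so that a difference of 1 is a doubling, and differences are DOR siRNA minus scrambled with the standard error of the limma model. A gene was called where limma's p, adjusted over 45037 probe sets, was under 0.05. The brighter probe set of Trp53inp2, the knocked-down gene, read 9.46, 9.93, 9.49 and 9.18 in the DOR siRNA arrays, against 11.50, 11.55, 11.43 and 10.92 in the scrambled arrays (limma adjusted p = 0.00087), while its dimmer probe set averaged 8.15 with DOR siRNA and 8.01 with scrambled RNA (limma adjusted p = 0.52). Array medians lay between 6.14 and 6.20. Of 6 regulators and early markers of muscle, 0 rose and 1 fell by limma (unadjusted p under 0.05: 1 higher, 2 lower). Myod1, Myog and Des, the defining ones among them, averaged 11.46, 13.39 and 12.86 in the DOR siRNA arrays and 11.51, 13.70 and 12.93 in the scrambled arrays. The groups overlapped for Myod1 and Des but not for Myog (-0.31 ± 0.09, limma adjusted p = 0.083). Myf5, also among the 6, was higher by 0.45 ± 0.13 without overlap (limma adjusted p = 0.080). Neither Myog nor Myf5 passed. Mef2c, a transcription factor of muscle differentiation, averaged 9.52 ± 0.38 with DOR siRNA and 11.05 ± 0.14 with scrambled RNA (SD, n = 4 each) and fell by 1.53 ± 0.16 (limma adjusted p = 0.0014). Myf6, a factor of mature muscle, averaged 6.18 with DOR siRNA and 6.57 with scrambled RNA, close to the median of all probe sets (6.18). Markers of adipocytes, endothelium and macrophages, 11 measured in all, held 0 genes called by limma (unadjusted p under 0.05: 0 higher, 1 lower). Over all probe sets 1452 were called (3.22%), of which 917 were higher (2.04%) and 535 lower (1.19%).

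In a dividing cell, Cdk1 bound to cyclins A and B starts mitosis, the kinases of the Aurora and Polo families organise the spindle, and the spindle checkpoint holds back the anaphase promoting complex until every kinetochore is attached. Once released, that complex marks securin and the cyclins for destruction, chromatids separate and the cleavage furrow closes. Many of these genes are transcribed through a shared arrangement at their promoters, in which CCAAT boxes are bound by NF-Y and a cell cycle homology region (CHR) by the MuvB complex, which represses in resting cells together with p130 and activates in dividing cells together with B-Myb and FoxM1. Myoblasts that enter differentiation leave the cell cycle and shut these genes off, whereas unfused reserve cells can return to it.

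The promoters below were taken from RefSeq (GRCm38.p6) to show this arrangement in members that rose. A promoter was found for 34 of the 40 genes, and the 250 bases before the start were searched on both strands for CHR words (TTTGAA or TTCGAA) and for CCAAT. Of the 2 members with the smallest p among those that rose in each role, taken over all roles, 4 genes held both words, and their sequences run 5′ to 3′ toward the start with both words in capitals on whichever strand they lie.
Cdc20, chr4:118437344-118437401, minus strand: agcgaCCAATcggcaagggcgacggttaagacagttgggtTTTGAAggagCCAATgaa
Top2a, chr11:99024190-99024421, minus strand: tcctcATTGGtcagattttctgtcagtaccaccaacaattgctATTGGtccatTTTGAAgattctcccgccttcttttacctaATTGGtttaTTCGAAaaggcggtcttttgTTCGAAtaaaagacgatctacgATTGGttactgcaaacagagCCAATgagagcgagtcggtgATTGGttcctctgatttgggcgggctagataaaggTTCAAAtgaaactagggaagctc
Cdk1, chr10:69352913-69353125, minus strand: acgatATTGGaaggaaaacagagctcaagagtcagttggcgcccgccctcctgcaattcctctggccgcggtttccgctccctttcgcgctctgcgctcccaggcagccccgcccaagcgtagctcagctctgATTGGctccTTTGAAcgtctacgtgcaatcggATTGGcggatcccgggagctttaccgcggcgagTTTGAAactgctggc
Mki67, chr7:135716380-135716572, minus strand: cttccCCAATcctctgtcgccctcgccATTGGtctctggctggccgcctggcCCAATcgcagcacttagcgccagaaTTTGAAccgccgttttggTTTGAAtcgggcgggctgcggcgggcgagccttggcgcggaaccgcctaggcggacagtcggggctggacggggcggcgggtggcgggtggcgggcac

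A CCAAT word lay upstream of the start in 25 of the 34 members (73.5%), against 34.5% of 27025 mouse promoters of the same length, and at least 2 of them in 17 members (50%), against 10.5%. A CHR word was present in 10 members (29.4%), against 17.4%, and both together in 9 (26.5%), against 6.21%. The words overlapped each other in 0 members. CCAAT was present in 15 of the 21 members that passed the limma test (71.4%) and in 10 of the 13 that did not (76.9%). At least 2 CCAAT words lay in 13 of those 21 (61.9%) and in 4 of those 13 (30.8%), while CHR words lay in 5 (23.8%) and 5 (38.5%). Both words together, by which the printed promoters were chosen, lay in 5 of the 21 (23.8%) and in 4 of the 13 (30.8%). These shares were not tested against each other. In Cdk1 the CHR words began 71 and 15 bases before the start and in Cdc20 the word began 18 bases before it, next to a CCAAT box. These matches describe letters in a fixed window, and CHR elements that lie after the annotated start were not searched.

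Mitosis genes were higher with DOR siRNA across every role. Of the 40 members, 24 rose, none fell (0) and 16 missed the limma threshold; over all genes 3.11% were called higher and 1.45% called lower by the brightest probe set. Without adjustment 38 members were higher at a p under 0.05, and 0 lower. All 40 differences were positive, with a median of 0.49 (1.40-fold) against 0.015 over all genes, and they ran from 0.21 (1.16-fold, Foxm1) to 0.68 (1.60-fold, Birc5). Among those that rose the range was 0.42 to 0.68. In 31 members the 4 DOR siRNA values all lay above the 4 scrambled values, which was the case for 8.1% of all genes, and 0 members showed the reverse, seen in 4.13% of all genes. RNA was measured in whole cultures, so a larger share of dividing cells and more of these transcripts per dividing cell cannot be told apart.

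The number that rose depended on single arrays although the size did not. Leaving out scrambled 3 gave 11, leaving out scrambled 2 gave 13, and leaving out DOR siRNA 1 or DOR siRNA 3 gave 14 each, while the median difference stayed between 0.45 and 0.53 whichever array was left out. With the replicate number as a block 32 members were higher, including all 24. Calls over all probe sets moved the same way in these fits, from 1452 to 608 without scrambled 3 and 669 without scrambled 2. They numbered 821 without DOR siRNA 1, 615 without DOR siRNA 3 and 2827 with the block. The 2 counts did not always move together: without scrambled 1, 627 probe sets were called but 23 members still rose. The calls of Aurkb, Birc5, Melk, Ttk, Cdc20, Nusap1, Anln and Top2a held under each of the 15 alternative settings.

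**Figure D1:**
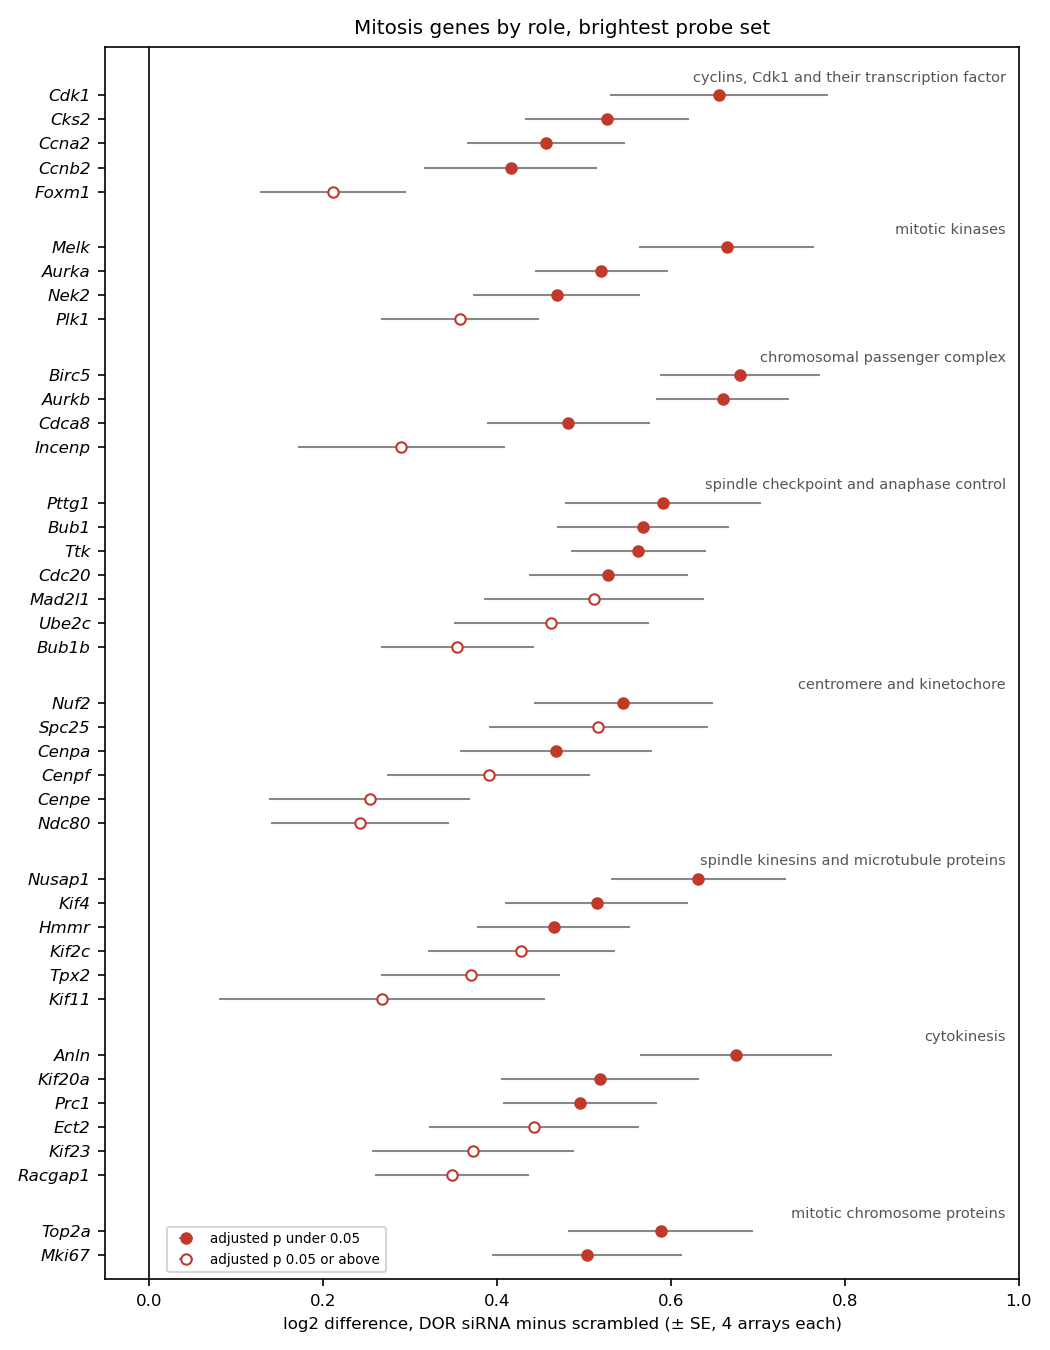
Log2 difference (DOR siRNA minus scrambled, horizontal axis) of the brightest probe set of each of 40 mitosis genes, grouped by role, with bars for the standard error (4 arrays per group). Filled points passed the limma test and open points did not; every point lies right of 0, from 0.21 for Foxm1 to 0.68 for Birc5.

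The first role is the switch into mitosis. Of its 5 measured members, 4 rose: Cks2, Cdk1, Ccna2 and Ccnb2. Cdk1, the kinase that drives entry into mitosis, read 10.04, 9.78, 9.99 and 10.23 with DOR siRNA, against 9.28, 9.24, 9.20 and 9.69 with scrambled RNA. The groups did not touch, and scrambled 4 stood well above the other scrambled arrays. The means were 10.01 ± 0.18 with DOR siRNA and 9.35 ± 0.23 with scrambled RNA (SD, n = 4 each), a difference of 0.66 ± 0.13 (1.57-fold, limma adjusted p = 0.020). Cks2, a small subunit that docks the kinase to its substrates, read 10.71, 10.47, 10.51 and 10.64 with DOR siRNA and 10.03, 10.17, 9.86 and 10.17 with scrambled RNA, again without overlap (0.53 ± 0.09, limma adjusted p = 0.015). Cyclin A2 (Ccna2) rose by 0.46 ± 0.09 and cyclin B2 (Ccnb2) by 0.42 ± 0.10. Foxm1, the transcription factor that activates many late cell cycle genes, read 7.63, 7.92, 7.84 and 7.85 with DOR siRNA and 7.68, 7.50, 7.62 and 7.59 with scrambled RNA. DOR siRNA 1 lay within the scrambled range, and the difference of 0.21 ± 0.08 did not pass (limma adjusted p = 0.24). Leaving out 1 array ended the call of Cks2 (scrambled 1), of Ccna2 (DOR siRNA 3 or 4, scrambled 2 or 3), of Cdk1 (DOR siRNA 1 or 3, scrambled 1, 2 or 3) and of Ccnb2 (any array), with limma adjusted p up to 0.14.

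Among the mitotic kinases Aurka, Melk and Nek2 rose and Plk1 did not pass. Aurora A (Aurka), which matures the centrosomes and the spindle poles, read 8.31, 8.18, 8.22 and 8.33 with DOR siRNA, against 7.86, 7.74, 7.65 and 7.72 with scrambled RNA. The groups came nearest at 8.18 with DOR siRNA and 7.86 with scrambled RNA (difference 0.52 ± 0.08, limma adjusted p = 0.0064). Melk, a kinase abundant in proliferating cells, showed 7.96, 7.88, 7.83 and 7.98 with DOR siRNA and 7.47, 7.05, 7.13 and 7.35 with scrambled RNA. Its rise of 0.66 ± 0.10 was the largest of the group (limma adjusted p = 0.0071). Nek2, which separates the centrosomes, rose by 0.47 ± 0.10. Plk1, the Polo kinase needed for spindle assembly and cytokinesis, read 8.67, 8.52, 8.57 and 8.63 with DOR siRNA and 8.47, 8.23, 8.18 and 8.07 with scrambled RNA. Those groups also stood apart, but by little at scrambled 1, and the difference of 0.36 ± 0.09 missed the threshold (limma adjusted p = 0.061). It passed in the fit with the replicate block (0.038) and without scrambled 1. Nek2 lost its call without DOR siRNA 1, 3 or 4 or scrambled 2 or 3 (limma adjusted p up to 0.077).

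The chromosomal passenger complex corrects faulty kinetochore attachments and later steers the cleavage furrow, and 3 of its 4 subunits rose. Aurora B (Aurkb), its kinase, read 7.66, 7.61, 7.78 and 7.77 with DOR siRNA, against 7.07, 7.02, 7.13 and 6.96 with scrambled RNA. The knockdown values lay clear of the scrambled ones by 0.48, and the SD was 0.08 with DOR siRNA and 0.07 with scrambled RNA. The difference was 0.66 ± 0.08 (1.58-fold, limma adjusted p = 0.0021). Survivin (Birc5), which targets the complex to centromeres, read 9.07, 8.90, 8.84 and 9.05 with DOR siRNA and 8.33, 8.30, 8.09 and 8.43 with scrambled RNA. This was the largest difference of the 40 members, 0.68 ± 0.09 (1.60-fold, limma adjusted p = 0.0043). Borealin (Cdca8) rose by 0.48 ± 0.09, and lost its call without DOR siRNA 1 or 3 or scrambled 2 or 3 (limma adjusted p up to 0.068). Incenp, the scaffold of the complex, read 9.12, 9.40, 9.31 and 9.49 with DOR siRNA and 9.25, 8.79, 8.92 and 9.20 with scrambled RNA. Its groups overlapped and the difference of 0.29 ± 0.12 did not pass (limma adjusted p = 0.26).

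**Figure D2:**
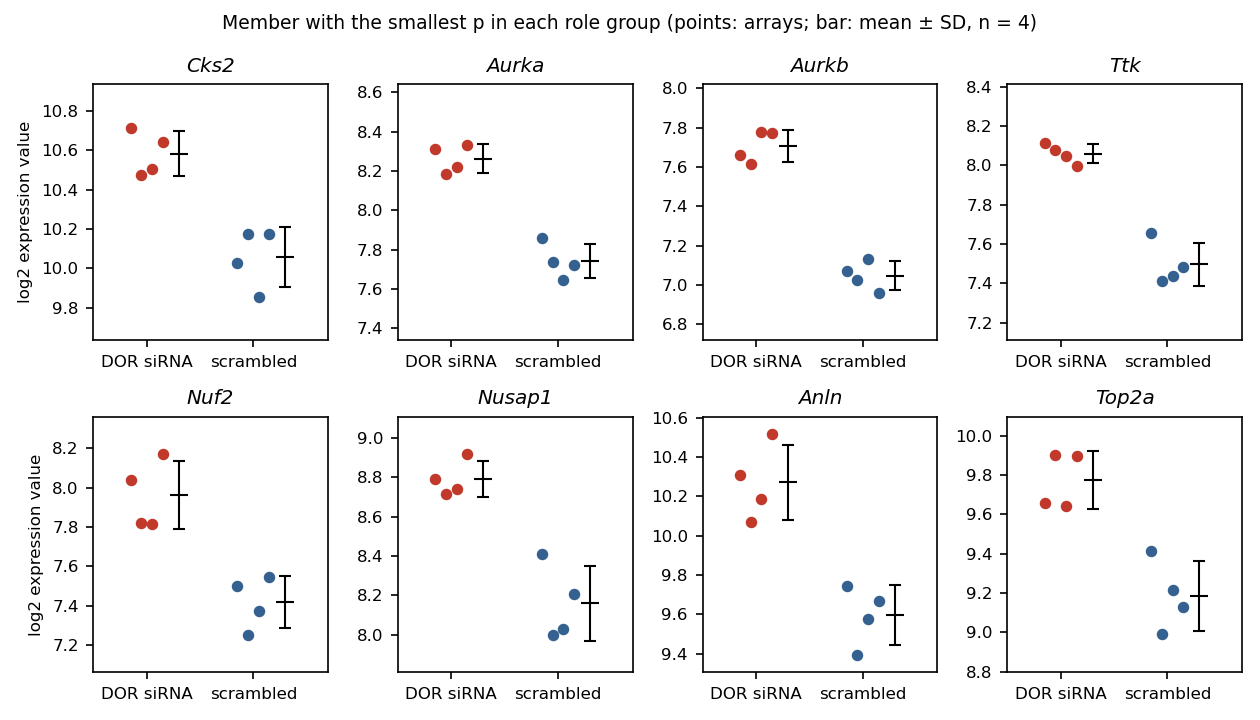
Log2 expression values of the member with the smallest p in each of the 8 role groups, with 1 point per array and the mean ± SD beside each group of 4. The vertical axes all span 1.3 log2 units, and in each of the 8 panels the DOR siRNA points lie above the scrambled points.

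The spindle checkpoint and the control of anaphase comprised 7 members, of which Ttk, Cdc20, Bub1 and Pttg1 rose. Ttk (Mps1), the kinase that starts checkpoint signalling, read 8.11, 8.08, 8.05 and 7.998 with DOR siRNA, against 7.65, 7.41, 7.44 and 7.48 with scrambled RNA. The knockdown arrays were close together (SD 0.05) and clear of the scrambled ones (SD 0.11), with a difference of 0.56 ± 0.08 (limma adjusted p = 0.0046). Cdc20, the activator of the anaphase promoting complex and the target of the checkpoint, read 10.25, 10.03, 10.07 and 10.27 with DOR siRNA and 9.75, 9.52, 9.51 and 9.73 with scrambled RNA (0.53 ± 0.09, limma adjusted p = 0.013). Bub1, a checkpoint kinase, rose by 0.57 ± 0.10, and securin (Pttg1), which inhibits separase, by 0.59 ± 0.11. Pttg1 lost its call without DOR siRNA 1 or 3 or scrambled 2 or 3 (limma adjusted p up to 0.071). The remaining members were Bub1b, Mad2l1 and Ube2c, and each was close to the threshold. BubR1 (Bub1b), which with Mad2 blocks Cdc20, read 8.49, 8.48, 8.43 and 8.44 with DOR siRNA and 8.34, 8.04, 8.03 and 8.003 with scrambled RNA. Scrambled 1 came closest to the knockdown arrays, and the difference was 0.35 ± 0.09 (limma adjusted p = 0.056). Mad2 (Mad2l1) differed by 0.51 ± 0.13 (0.054) and Ube2c, the ubiquitin-conjugating enzyme of the anaphase promoting complex, by 0.46 ± 0.11 (0.051). With the replicate block these 3 passed, at limma adjusted p of 0.036 for Bub1b, 0.014 for Mad2l1 and 0.044 for Ube2c.

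Centromere and kinetochore genes had the smallest median of the role groups, 0.43, and 2 of 6 rose. Nuf2, a subunit of the Ndc80 complex that binds microtubules, read 8.04, 7.82, 7.82 and 8.17 with DOR siRNA, against 7.50, 7.25, 7.38 and 7.54 with scrambled RNA (0.55 ± 0.10, limma adjusted p = 0.019). Cenpa, the histone H3 variant that marks centromeres, read 8.91, 8.79, 8.61 and 8.58 with DOR siRNA and 8.43, 8.39, 8.06 and 8.12 with scrambled RNA. The gap between its groups was narrow, and the difference of 0.47 ± 0.11 passed by little (limma adjusted p = 0.046). The call of Cenpa was lost without any single array (limma adjusted p up to 0.13), and that of Nuf2 without DOR siRNA 1 or scrambled 2 or 3 (up to 0.065). The partners of Nuf2 in the same complex were less clear. Spc25 differed by 0.52 ± 0.13 (limma adjusted p = 0.052, and 0.0074 with the replicate block). Ndc80 read 6.76, 6.76, 6.56 and 6.89 with DOR siRNA and 6.37, 6.52, 6.73 and 6.38 with scrambled RNA, with overlapping groups and a difference of 0.24 ± 0.10 that did not pass (limma adjusted p = 0.28). Cenpe, a kinesin of the kinetochore, differed by 0.25 ± 0.12 and Cenpf, a kinetochore protein that accumulates in G2, by 0.39 ± 0.12, and neither passed (limma adjusted p = 0.33 and 0.11).

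Of 6 spindle proteins Nusap1, Kif4 and Hmmr rose. Nusap1, which bundles spindle microtubules around chromosomes, read 8.79, 8.71, 8.74 and 8.92 with DOR siRNA, against 8.41, 7.996, 8.03 and 8.21 with scrambled RNA (0.63 ± 0.10, limma adjusted p = 0.0092). Hmmr, a microtubule-associated protein of the spindle poles, read 8.62, 8.57, 8.41 and 8.55 with DOR siRNA and 8.25, 8.11, 7.95 and 7.97 with scrambled RNA (0.47 ± 0.09, limma adjusted p = 0.019). Neither gene had overlapping groups, and scrambled 1 was the highest scrambled array for both. The chromokinesin Kif4 rose by 0.51 ± 0.10. Kif4 lost its call without DOR siRNA 3 or 4 or scrambled 1, 2 or 3, and Hmmr without DOR siRNA 1 or scrambled 3 (limma adjusted p up to 0.083). The microtubule depolymerase Kif2c (0.43 ± 0.11, limma adjusted p = 0.058, and 0.033 with the replicate block) and Tpx2, the activator of Aurora A (0.37 ± 0.10, limma adjusted p = 0.081), did not pass. Kif11, the motor that pushes the spindle poles apart, read 7.65, 6.99, 7.84 and 7.97 with DOR siRNA and 7.49, 7.36, 7.06 and 7.48 with scrambled RNA. DOR siRNA 2 was the lowest of all 8 values, and the difference was 0.27 ± 0.19 (limma adjusted p = 0.58). Without that array it was 0.47 ± 0.12 and still did not pass (limma adjusted p = 0.064).

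Cytokinesis genes rose for 3 of 6 members (3.11% of all genes did). All 6 had DOR siRNA values wholly above the scrambled ones, as had 8.1% of all genes. Anln, the anillin scaffold of the contractile ring, read 10.31, 10.07, 10.19 and 10.52 with DOR siRNA, against 9.75, 9.39, 9.58 and 9.67 with scrambled RNA. Only Birc5 differed by more among the members, and the difference was 0.68 ± 0.11 (1.60-fold, limma adjusted p = 0.010). Prc1, which bundles microtubules of the central spindle, read 9.18, 9.15, 9.23 and 9.40 with DOR siRNA and 8.91, 8.64, 8.65 and 8.78 with scrambled RNA (0.50 ± 0.09, limma adjusted p = 0.015). The kinesin Kif20a, which brings Aurora B to the midzone, rose by 0.52 ± 0.11. Prc1 lost its call without scrambled 3 (limma adjusted p = 0.055), and Kif20a without DOR siRNA 1, 3 or 4 or scrambled 2 or 3 (up to 0.097). Centralspindlin, made of Racgap1 and Kif23, and its partner Ect2, which activates RhoA at the furrow, did not pass. Racgap1 read 9.85, 9.83, 9.84 and 9.68 with DOR siRNA and 9.58, 9.39, 9.57 and 9.27 with scrambled RNA. DOR siRNA 4 was the lowest knockdown array, 0.11 above the highest scrambled one, and the difference was 0.35 ± 0.09 (limma adjusted p = 0.061). Ect2 differed by 0.44 ± 0.12 (0.077) and Kif23 by 0.37 ± 0.12 (0.12). With the replicate block Racgap1 (0.028) and Ect2 (0.026) passed and Kif23 (0.083) did not.

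Both proteins of mitotic chromosomes rose. Topoisomerase II alpha (Top2a), which untangles sister chromatids, read 9.66, 9.90, 9.64 and 9.90 with DOR siRNA, against 9.41, 8.99, 9.21 and 9.13 with scrambled RNA (0.59 ± 0.11, limma adjusted p = 0.015). Ki-67 (Mki67), which coats mitotic chromosomes and marks cycling cells, read 9.23, 9.43, 9.21 and 9.34 with DOR siRNA and 9.10, 8.58, 8.74 and 8.78 with scrambled RNA (0.50 ± 0.11, limma adjusted p = 0.033). The groups stood apart for both genes, with scrambled 1 the nearest to the knockdown arrays. Mki67 lost its call without any 1 of the DOR siRNA arrays and without scrambled 2 or 3 (limma adjusted p up to 0.10).

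Within a group the highest values of the members were spread unevenly over the arrays. Scrambled 1 held the highest scrambled value for 31 of 40 members. DOR siRNA 4 held the highest knockdown value for 19, and DOR siRNA 1, 2 and 3 for 10, 8 and 3. The same count over all genes was not made. The mean of the members, relative to their scrambled means, was 0.49, 0.44, 0.42 and 0.55 in the DOR siRNA arrays, against 0.16, -0.08, -0.08 and -0.00 in the scrambled arrays. All 4 knockdown arrays lay above all 4 scrambled ones, and scrambled 1 was the highest of its group. Between same-numbered cultures the median difference was 0.32 in pair 1, 0.53 in pair 2, 0.52 in pair 3 and 0.55 in pair 4. The knockdown culture had the higher value for 37, 39, 39 and 40 of the 40 members in these pairs, and in all 4 pairs for 35 members, against 18.1% of all genes.

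**Figure D3:**
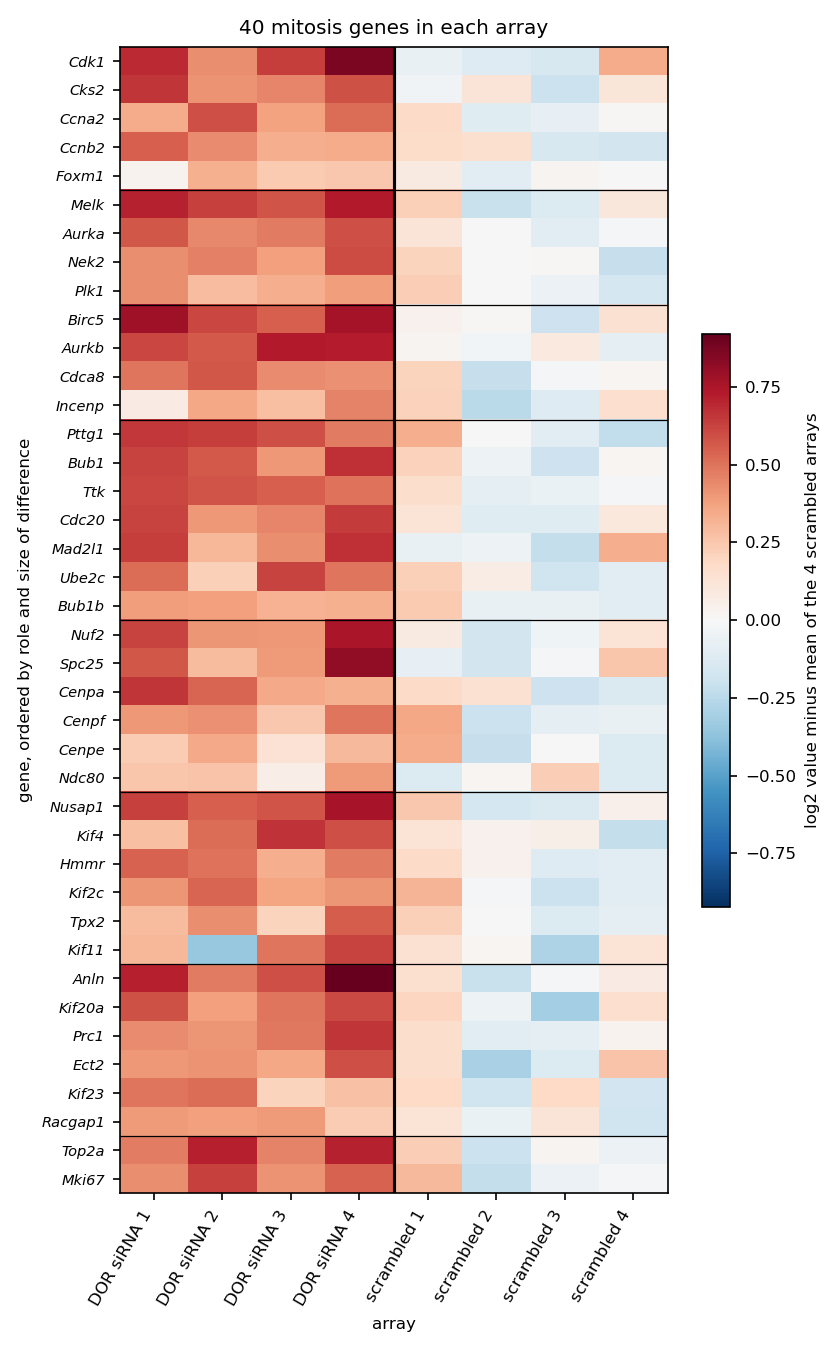
Log2 value of each of 40 mitosis genes in each array minus the mean of the gene's 4 scrambled arrays, with red above and blue below that mean; the vertical line parts DOR siRNA from scrambled arrays and horizontal lines part the roles. The DOR siRNA side is red for nearly every gene, Kif11 in DOR siRNA 2 being the clearest exception, and scrambled 1 is the reddest scrambled column.

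The other probe sets of the members differed with their brightness. Of the 51 that were not the brightest of their gene, 30 had a mean no lower than 6.18, the median of all probe sets. Of those 30, all had positive differences and 13 were called higher (2.04% of all probe sets were), with a median of 0.37. Of the 21 below it, 1 was called higher, 14 were positive and the median was 0.06. Dim probe sets were not shown to be above background and some may not lie in the annotated transcript. A dimmer probe set passed in 4 genes whose brightest did not, and these are named after their values were seen: Foxm1 (0.58 ± 0.08, limma adjusted p = 0.0039), Incenp (0.42 ± 0.09), Kif11 (0.55 ± 0.13) and Kif2c (0.36 ± 0.08). Counting any probe set, 28 of the 40 members rose, a count that favours genes with several probe sets. The share of all genes counted this way was not computed. Averaging a gene's probe sets gave a median of 0.40 and 26 members higher, with 721 of all 18193 genes higher. The average ended the calls of Aurka (0.19), Nek2 (0.17) and Bub1 (0.25), and Nusap1 (0.31), Top2a (0.27) and Cenpa (0.26) passed with smaller differences. For 8 members the brightest probe set is of a kind (s_at or x_at) that may also bind related transcripts, among them Aurkb, Cks2, Prc1 and Pttg1.

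**Figure D4:**
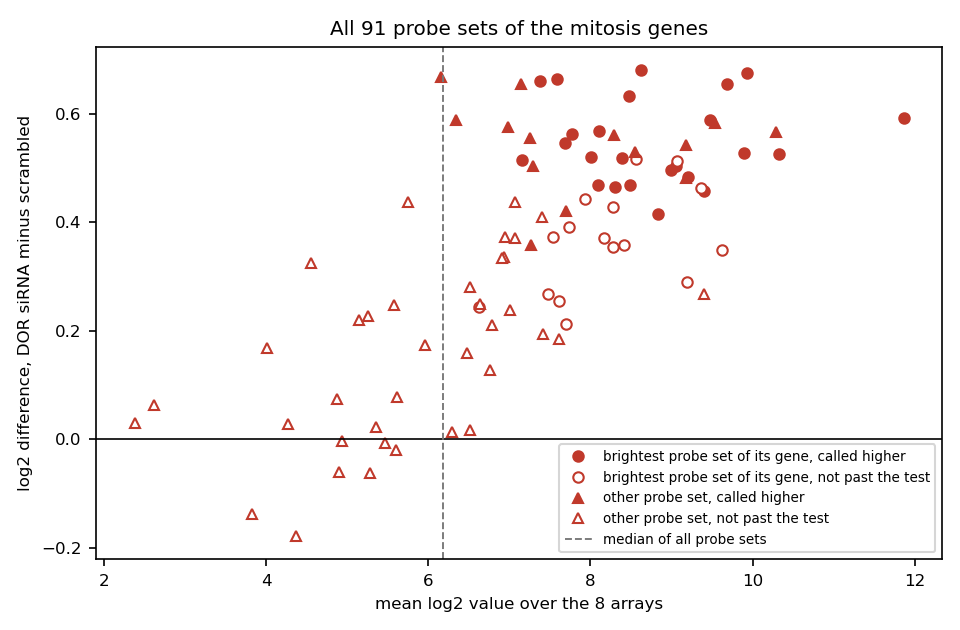
Log2 difference (DOR siRNA minus scrambled, vertical axis) of all 91 probe sets of the mitosis genes against their mean log2 value over the 8 arrays; circles are the brightest probe set of a gene, triangles the others, filled symbols passed the limma test. Right of the dashed line at the median of all probe sets (6.18) all points are positive, while left of it they scatter around 0, with 1 called.

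Other genes of mitosis were a list of 135 not overlapping the members, with 133 measured. Of these, 38 rose (28.6%, against 3.11% of all genes), 0 fell (against 1.45%) and 95 missed the limma threshold. Their median was 0.18 (unadjusted p under 0.05: 57 higher, 3 lower). Those with the smallest p were Cdca5, Ncapg, Depdc1a, Tacc3, Fbxo5 and Kif18a. Sororin (Cdca5), which protects sister chromatid cohesion, averaged 7.79 ± 0.05 with DOR siRNA and 7.07 ± 0.08 with scrambled RNA (SD, n = 4 each; 0.71 ± 0.07, limma adjusted p = 0.0011). The condensin subunit Ncapg rose by 0.70 ± 0.09 (limma adjusted p = 0.0033). Depdc1a differed by 0.73 ± 0.10, and the spindle protein Tacc3 by 0.62 ± 0.09, or by 0.36 as the mean of its probe sets. Fbxo5 (Emi1), an inhibitor of the anaphase promoting complex, rose by 0.66 ± 0.10 and the kinesin Kif18a by 0.53 ± 0.08. These 6 calls held whichever array was left out. Leaving out DOR siRNA 1, 3 or 4 gave 23, 18 and 25 genes that rose, and leaving out scrambled 2 or 3 gave 20 and 19.

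Complexes within that list, split after the values were seen, are given beside the share of all genes, 3.11% called higher and 1.45% called lower. Of 8 condensin subunits 4 rose, with a median of 0.39. Of 8 genes of the cohesin ring and its release, 0 were called by limma (unadjusted p under 0.05: 0 higher, 1 lower), with a median of -0.07. Of 12 core subunits of the anaphase promoting complex, 0 were called by limma (unadjusted p under 0.05: 1 higher, 0 lower), with a median of 0.04 and a range of -0.16 to 0.26. Counts of 0 among 8 or 12 genes lie near the share of all genes. No test of the difference between these complexes was made.

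Genes of the earlier cell cycle phases were set beside the members. Of 39 genes of DNA replication and nucleotide supply 9 rose (23.1%, against 3.11% of all genes). None fell (0, against 1.45% of all genes) and 30 missed the limma threshold (unadjusted p under 0.05: 23 higher, 0 lower). Their median was 0.36. Thymidine kinase (Tk1) averaged 8.57 ± 0.14 with DOR siRNA and 7.76 ± 0.08 with scrambled RNA (SD, n = 4 each), a rise of 0.81 ± 0.09 (limma adjusted p = 0.0013). Next in order of p were the polymerase subunit Pole (0.48 ± 0.09), Dbf4, the activator of the Cdc7 kinase (0.45 ± 0.08), the helicase subunit Mcm6 (0.49 ± 0.10), the clamp loader subunit Rfc5 (0.39 ± 0.08) and a further helicase subunit, Mcm7 (0.33 ± 0.07). In the mean over probe sets Dbf4 passed with 0.26, and Mcm6 missed the threshold with 0.35 (limma adjusted p = 0.055). Apart from Tk1 these lost their calls with 1 array left out (limma adjusted p up to 0.091). The count was 19 with the replicate block, 3 with the poly-A controls as a covariate, 16 without scrambled 4, 4 without DOR siRNA 1 or scrambled 2, 3 without DOR siRNA 4, scrambled 1 or scrambled 3, and 1 without DOR siRNA 3.

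Of 15 regulators of G1, 2 rose (13.3%, against 3.11% of all genes) and 1 fell (6.67%, against 1.45%). The other 12 did not pass, and the median of the 15 was 0.04. Cyclin D1 (Ccnd1), which links growth signals to the cell cycle, averaged 10.00 ± 0.14 with DOR siRNA and 8.99 ± 0.22 with scrambled RNA (1.01 ± 0.11, limma adjusted p = 0.0020). Rbl1, which encodes the pocket protein p107 and also stands in the list of other mitosis genes, rose by 0.40 ± 0.07. Without scrambled 1, 2 or 3 that call was lost (limma adjusted p up to 0.060), as it was when its probe sets were averaged (0.24). Cdkn1c, the inhibitor p57 of cyclin-dependent kinases, averaged 6.75 ± 0.35 with DOR siRNA and 8.56 ± 0.50 with scrambled RNA, and fell by 1.81 ± 0.23 (limma adjusted p = 0.0033).

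Markers of differentiated muscle moved the other way in the same arrays. Of 14 contractile genes 8 fell (57.1%, against 1.45% of all genes) and 0 rose by limma (unadjusted p under 0.05: 0 higher, 13 lower). Their mean relative to the scrambled mean was -0.63, -0.77, -1.01 and -1.33 in the DOR siRNA arrays, against 0.10, 0.26, -0.10 and -0.26 in the scrambled arrays, with no overlap. Among the DOR siRNA arrays, DOR siRNA 4 had the lowest contractile and the highest mitosis mean (0.55). DOR siRNA 1 had the highest contractile and the next highest mitosis mean (0.49). With 4 arrays per group, the relation between these means was not tested. Among 4 markers of reserve cells Cd34 rose (1.17 ± 0.14) and 0 fell (unadjusted p under 0.05: 2 higher, 1 lower), with Spry1 at -0.43 ± 0.14 and Sdc4 at 0.01 ± 0.12. Pax7, read by a dim probe set (mean 5.29), stood at 0.44 ± 0.12 and did not pass (limma adjusted p = 0.073). Among 5 fibroblast markers Pdgfra rose (0.57 ± 0.12) and 0 fell (unadjusted p under 0.05: 3 higher, 0 lower). The mean levels of these lists lay between 8.18 and 8.50 with DOR siRNA and between 7.83 and 8.14 with scrambled RNA for reserve cells, and between 6.80 and 7.18 with DOR siRNA and between 6.56 and 6.86 with scrambled RNA for fibroblasts. The poly-A spike controls of the arrays averaged 7.41 to 7.89 with DOR siRNA and 7.36 to 8.10 with scrambled RNA. The part of these markers in the difference of the mitosis genes was not tested.

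**Figure D5:**
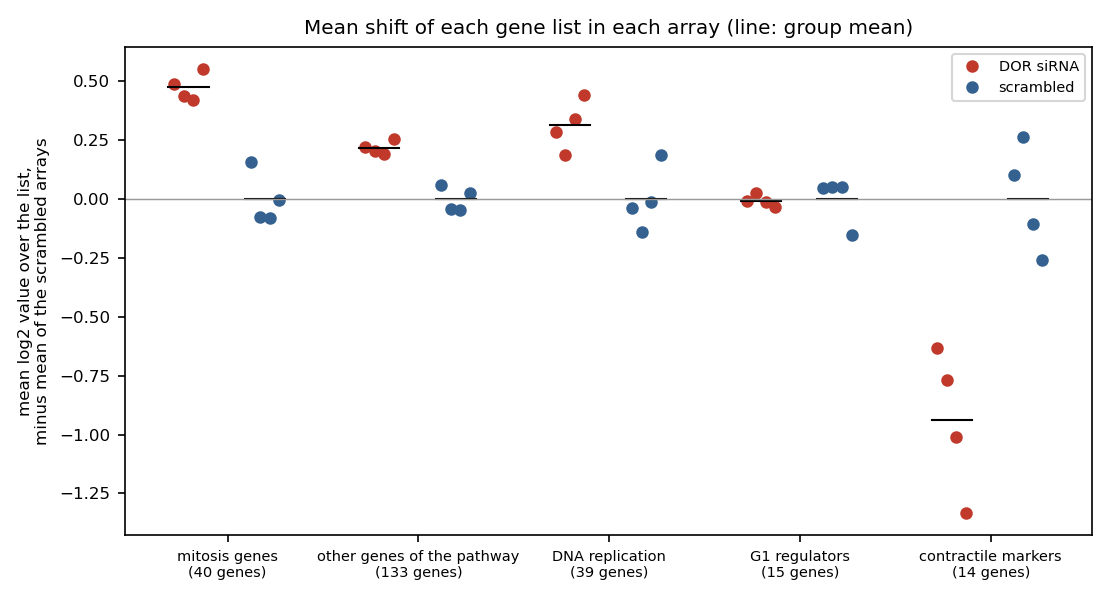
Mean log2 value over each gene list in each array, minus the mean of the 4 scrambled arrays, for the 40 mitosis genes, 133 other genes of the pathway, 39 replication genes, 15 G1 regulators and 14 contractile markers; each point is an array and each line a group mean. DOR siRNA points lie above scrambled points for the first pair of lists, touch them for replication, mix with them for G1 regulators and lie below them for the contractile markers.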

How the data were processed

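The authors deposited log2 intensities summarised by RMA from 1-colour Affymetrix arrays, per the submitters' processing notes. The RMA version is not given in the sources used here. RMA makes the arrays' distributions alike, so a shift of most transcripts in 1 direction would not show. Of 45101 probe sets 64 were controls, and 45037 were fitted with limma 3.58.1 in R 4.3.3 on group alone, with eBayes and Benjamini-Hochberg adjustment. The platform table gave 1 symbol for 34945 probe sets, several for 932 and none for 9160; identifiers of 34741 matched RefSeq.

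The members and lists were chosen with earlier results of these data known. In each role group, array values are given for the 2 called members with the smallest p and the member with the smallest difference, and from the other lists up to 6 called genes in each direction with the smallest p. Subgroups of complexes were split after the values were seen. Deviations from the group means correlated at r = 0.142 to 0.468 between arrays of the same number (4 pairs) and at -0.394 to 0.265 between arrays of different numbers (12 pairs). All 4 same-numbered values exceeded 0.1, although DOR siRNA 1 correlated better with scrambled 2 (0.265) than with scrambled 1 (0.149). The number served as a pairing only in the replicate block and in the differences between same-numbered cultures. The main fit left the pairing out and called 24 members higher, against 32 with the block. On simulated data of 45037 probe sets the fit recovered 45.4% of changes of 0.5 and 88.4% of changes of 1. The simulation held 200 changed probe sets and independent noise without a replicate effect. These shares need not hold for the real arrays, where 1452 probe sets were called. The number of arrays limits the precision.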

Additional observations from a re-analysis of the deposited data

Results flagged for a closer look

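Of 112 sets of 4 arrays (56 named genes in 2 groups), 4 held 1 array whose distance to its nearest neighbour exceeded Dixon's 95% critical share of the group's range, which chance does in about 1 in 20 sets. Cdk1 read 9.69 in scrambled 4, against at most 9.28 in the other scrambled arrays, and without that array it was higher by 0.77 ± 0.10 (limma adjusted p = 0.0043). Bub1b read 8.34 in scrambled 1, against 8.003 to 8.04 in the others, and without that array its difference was 0.43 ± 0.07 and passed (limma adjusted p = 0.027). Racgap1 read 9.68 in DOR siRNA 4, against 9.83 to 9.85 in the other knockdown arrays, and did not pass without it (0.39 ± 0.10, limma adjusted p = 0.070). Rfc5 read 8.41 in DOR siRNA 4, against 8.27 to 8.30 in the others, and lost its call without that array (0.36 ± 0.09, limma adjusted p = 0.060).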

How the results depend on the processing

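Over 15 alternative settings the 40 mitosis genes gave 600 differences, of which 600 were positive; 495 stayed on their side of the threshold, 73 lost the call and 32 gained it. The alternatives were cyclic loess, median centring, dim probe sets left out, the mean over probe sets, a variance trend with a robust prior, the replicate block, a poly-A covariate and each array left out. The members that rose numbered 24, 31 with dim probe sets left out and 32 with the replicate block. They numbered 18 with the poly-A covariate, 26 in the mean over probe sets and 11 to 25 with an array left out. The median difference was 0.40 in the mean over probe sets. The other mitosis genes that rose numbered 38, and 18 to 38 with an array left out, where 0 to 1 were lower. Replication genes that rose numbered 9, 14 with dim probe sets left out, 19 with the replicate block, 3 with the poly-A covariate and 1 to 16 with an array left out. G1 regulators that rose numbered 2, 1 in the mean over probe sets and 1 to 2 with an array left out. Of all probe sets 1452 were called, 2827 with the replicate block, 785 with the poly-A covariate and 608 to 2310 with an array left out. The poly-A covariate ended the calls of Ccna2 (0.47), Cdk1 (0.66), Nek2 (0.46), Nuf2 (0.54), Kif4 (0.48) and Mki67 (0.52), with a median difference of 0.51 over the members. Median centring ended those of Ccnb2 and Cenpa, and the variance trend that of Ccnb2. The cause of these changes was not tested.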

Other observations

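A pair of atypical repressors of the E2F family, named after their values were seen, stood on opposite sides of 0. E2f7 averaged 7.69 ± 0.21 with DOR siRNA and 6.95 ± 0.19 with scrambled RNA (SD, n = 4 each) and rose by 0.74 ± 0.12 (limma adjusted p = 0.011, and up to 0.045 with an array left out). E2f8 averaged 8.75 ± 0.12 with DOR siRNA and 8.99 ± 0.07 with scrambled RNA. Its groups did not overlap, but the difference of -0.25 ± 0.08 did not pass (limma adjusted p = 0.15, and 0.12 to 0.32 with an array left out).

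Of 8 genes of the centrosome 3 rose (37.5%, against 3.11% of all genes). None fell (0, against 1.45% of all genes) and 5 missed the limma threshold (unadjusted p under 0.05: 4 higher, 1 lower). Stil, which works with the kinase Plk4 in starting a new centriole, rose by 0.59 ± 0.10 (limma adjusted p = 0.013) and kept its call whichever of the 8 arrays was left out. Plk4 itself rose by 0.51 ± 0.10 (limma adjusted p = 0.019), a call lost without DOR siRNA 1 or 3 or scrambled 2 or 3 (limma adjusted p up to 0.064). Cep152, a scaffold that recruits Plk4, rose by 0.31 ± 0.07 (limma adjusted p = 0.045), and of the 8 fits with an array left out only that without scrambled 4 kept the call (limma adjusted p up to 0.12). Pcnt, a scaffold of the pericentriolar material, stood at -0.25 ± 0.09 (limma adjusted p = 0.18). These genes were named after their values were seen.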
